A study of Ovis aries and Capra hircus and Bos taurus with 26 samples.

Results

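Cattle liver was profiled by ChIP-seq (chromatin immunoprecipitation followed by sequencing) for 2 histone marks, and the peaks of those marks on the autosomes are set against each other here. The 5 libraries came from adult, healthy Holstein cattle of 3 to 4 years. H3K27ac was measured in animals B and C with antibody ab4729, and H3K4me3 in animals A, B and C with antibody ab85850. No animal received a treatment, and libraries with the same letter are from one liver. Intervals on the 29 autosomes of the build ARS-UCD1.2 were taken, which are the sequences NC_037328.1 to NC_037356.1. They numbered 156329 in the 5 libraries, or 96.5% of the 161924 intervals of the cattle lists. The whole series holds 616400 intervals in 17 lists from cattle, sheep and goats. Frozen, powdered liver was used, so each list is a mixture of hepatocytes and the other cells of the organ. More cells that carry a mark and a stronger mark per cell cannot be told apart in such samples. No gene or sequence of this build was matched to the intervals, so markers of liver cells were not analysed here and the label liver was not checked against them.

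Acetylation of lysine 27 on histone H3 loosens the contact between the tail and DNA and is found at active promoters and at active enhancers, the distant elements that raise transcription of a gene. Trimethylation of lysine 4 is set down around the start of transcribed genes, most of all at promoters in CpG islands. An element that carries both marks is usually read as a promoter, and one with H3K27ac alone as an enhancer. In liver, enhancers of this kind surround genes for plasma proteins, lipid handling and detoxification. H3K4me3 without H3K27ac is known from promoters that are held silent or poised.

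An interval is a stretch called enriched by the peak caller MACS2. The caller writes 1 row per summit, which is a local maximum of the signal, and rows with the same start and end were joined into 1 interval. H3K27ac had more intervals on the autosomes than H3K4me3. The H3K27ac libraries held 38390 in animal B and 42558 in animal C. The H3K4me3 libraries held 26373 in animal A, 23613 in B and 25395 in C. The marks did not overlap, and the means of 40474 ± 2947 (SD, n = 2) and 25127 ± 1399 (SD, n = 3) stood 1.61 times apart. The log2 difference, H3K27ac minus H3K4me3, was 0.69 (p = 0.1, two-sided exact permutation test), and 0.42 with q under 1e-05 (p = 0.1, the same exact test). That p is the smallest that the 10 arrangements of 2 against 3 libraries allow, so no comparison of single values between the marks can pass 0.05 here.

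H3K4me3 intervals were wider. The median width was 495 bp in B and 520 bp in C for H3K27ac. It was 776, 709 and 765 bp in A, B and C for H3K4me3. All H3K4me3 libraries lay above both H3K27ac libraries, and the log2 difference was -0.56 (p = 0.1, two-sided exact permutation test). With the 20000 intervals of highest −log10 q in each library it was -0.28 (p = 0.2, two-sided exact permutation test), with medians of 699 and 784 bp against 972, 813 and 916 bp. The lower end of the widths was alike, since the narrowest 10% of each library ended between 274 and 277 bp for H3K27ac and between 263 and 297 bp for H3K4me3. The upper end was not, for the widest 10% began at 1108 and 1179 bp for H3K27ac and between 1398 and 1563 bp for H3K4me3. In sum, H3K27ac covered 25.1 ± 2.7 Mb (SD, n = 2) and H3K4me3 20.8 ± 2.2 Mb (SD, n = 3), a ratio of 1.21 beside the ratio of 1.61 in number.

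H3K4me3 intervals also held more summits. The mean number of summits per interval was 1.30 and 1.31 in the H3K27ac libraries. It was 1.53 in animal A, 1.48 in B and 1.39 in C for H3K4me3, all above the H3K27ac libraries. The difference was -0.16 summits (p = 0.2, two-sided exact permutation test), since setting H3K4me3 of A and B against the other 3 libraries gives a larger one. With the 20000 strongest intervals per library by −log10 q the marks overlapped, at 1.46 and 1.51 for H3K27ac and 1.67, 1.56 and 1.48 for H3K4me3, and differed by -0.083 (p = 0.4 in the same exact test). With intervals within 500 bp merged it was -0.080. More than 1 summit was found in 23.8% and 24.96% of the H3K27ac intervals, against 37.8%, 34.8% and 30.3% of the H3K4me3 intervals. With 4 or more summits the shares were 0.77% and 0.93% against 3.02%, 2.42% and 1.52%. Width and summits went together, as the median H3K4me3 interval of 1 summit spanned 473 to 557 bp and that of 2 summits 1068 to 1210 bp. For H3K27ac those medians were 416 and 430 bp, and 911 and 964 bp. The summits of an interval with 2 of them stood about as far apart in both marks, with a median of 413 and 436 bp for H3K27ac and 420 to 472 bp for H3K4me3.

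The intervals with the most summits were wide and of modest enrichment. In H3K27ac of animal B the highest count was 7 summits over 2969 bp of chromosome 8 (74067834 to 74070802), with a fold enrichment of 2.96 as the peak caller gave it. In animal C, 4 intervals tied at 6 summits, of which the widest spanned 2965 bp of chromosome 19 (27532746 to 27535710). Each H3K4me3 library had 1 interval of 8 summits, on chromosome 13 in animal A (3981751 to 3984998), on chromosome 16 in B (6330509 to 6333201) and on chromosome 26 in C (8455424 to 8458426). Their fold enrichments of 3.53, 3.38 and 4.19 were below the library medians of 6.53, 6.51 and 7.31.

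The next comparison asked how often an interval of one mark met the other mark in the same liver, which could be asked in animals B and C. An interval was called apart when it shared no base with any interval of the other mark. Of the H3K27ac intervals, 53.1% were apart in animal B and 55.5% in C. Of the H3K4me3 intervals, 27.02% were apart in B and 28.04% in C. The difference was 26.1 percentage points in B and 27.5 in C. Both animals went the same way, and a sign-flip test over 2 animals has 0.5 as its smallest p and was not made. With q under 1e-05 the mean difference was 17.5 percentage points. The overlapping intervals were nearly equal in number, 17991 of H3K27ac and 17233 of H3K4me3 in animal B, and 18924 and 18274 in C. The excess of H3K27ac therefore lay in the intervals that stood apart, 20399 against 6380 in B and 23634 against 7121 in C. Among the 20000 strongest intervals per library by −log10 q, the shares apart were 31.5% and 35.2% for H3K27ac and 32.6% and 35.3% for H3K4me3. Their mean difference was -0.65 percentage points. Both lists are equally long there, and most overlapping intervals met a single partner. The setting itself therefore brings the shares close and cannot show whether the difference holds.

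Intervals that met the other mark were wide and those apart were narrow, in either mark. In animal B the median width was 704 bp for overlapping and 391 bp for apart H3K27ac intervals, and 873 and 348 bp for H3K4me3. In animal C these values were 749 and 421 bp for H3K27ac, and 937 and 437 bp for H3K4me3. The marks thus differed in width among overlapping intervals, where H3K4me3 was wider in both animals. Among intervals apart, H3K4me3 was narrower in B and wider in C. Summits followed the same split. The mean number per interval lay between 1.14 and 1.17 in all 4 sets of intervals apart, and between 1.47 and 1.60 in the 4 overlapping sets. The fold enrichment was higher in the overlapping sets too, with medians of 4.76 and 5.28 against 3.18 and 3.41 for H3K27ac, and 7.49 and 8.34 against 4.64 and 5.21 for H3K4me3. A wide interval has more bases with which to meet another one, and the part of this in the split was not tested.

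**Figure D1:**
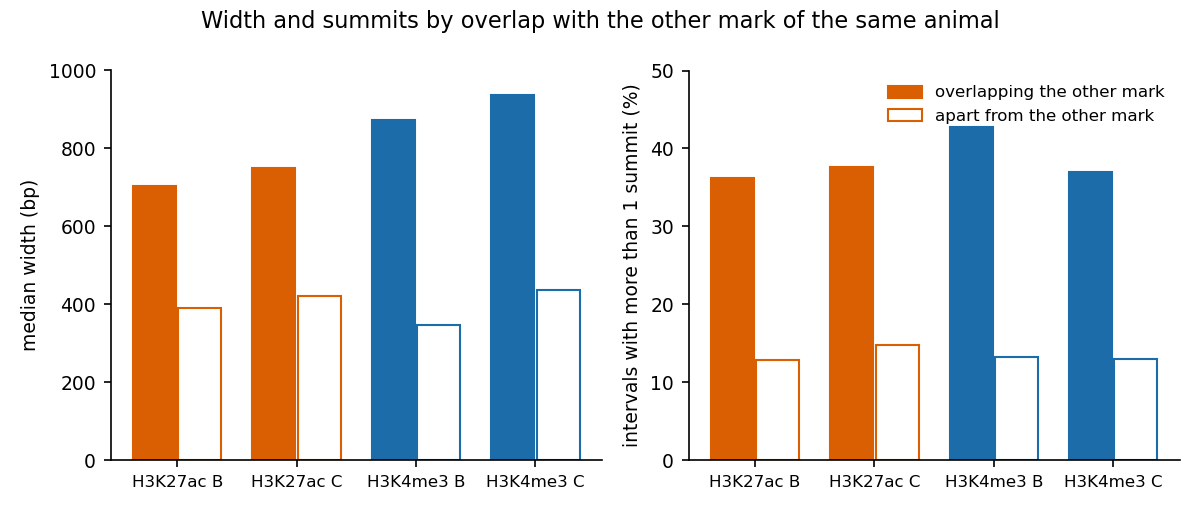
Median width in bp (left) and percent of intervals with more than 1 summit (right) for the 4 libraries of animals B and C, with H3K27ac in orange and H3K4me3 in blue. Filled bars are intervals that share at least 1 base with the other mark of the same animal and open bars are intervals apart from it, which are narrow and mostly of 1 summit in both marks (12.9% to 14.8% with more than 1).

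Most meetings were of 1 interval with 1 interval. There were 15217 such pairs in animal B and 16295 in C, which took 88.3% and 89.2% of the overlapping H3K4me3 intervals. The H3K4me3 interval was the wider one in 62.7% of the pairs in B and 68.2% in C, and the median ratio of its width to that of its partner was 1.09 and 1.14. The H3K27ac interval lay wholly inside its partner in 38.8% and 44.3% of pairs, and the reverse held in 15.2% and 13.0%. The strongest summits of a pair stood 59 bp apart at the median in B and 53 bp in C, and no more than 354 and 381 bp apart in 90% of pairs. The numbers of summits were equal in 62.6% and 65.9% of pairs. H3K4me3 had more of them in 20.6% of pairs in B but in 14.5% in C, where H3K27ac had more in 19.5%, so the excess of H3K4me3 summits among pairs was seen in animal B alone. A further 1150 H3K4me3 intervals in B and 1050 in C met 2 H3K27ac intervals each.

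For intervals apart, the gap to the nearest interval of the other mark was measured edge to edge. For H3K27ac its median was 22438 bp in animal B and 17950.5 bp in C. For H3K4me3 it was 13697 bp in B and 16606 bp in C. The log2 difference was 0.71 in B and 0.11 in C, so the size of this difference was not stable between the animals, and it became -0.25 with the 20000 strongest intervals of each library. Among H3K27ac intervals, 9.30% in B and 11.2% in C lay within 5 kb of H3K4me3 without touching it, and 7.43% and 6.10% lay over 100 kb away.

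Within 1 to 8 kb of H3K4me3, H3K27ac intervals were sparsest at a few kb. In animal B, 441 lay 1 to 2 kb away, 285 lay 3 to 4 kb away and 523 lay 7 to 8 kb away. In animal C the same classes held 647, 436 and 716. Within these distances both animals had their lowest number at 3 to 4 kb and a rise after it. Around H3K27ac, the H3K4me3 intervals of the same classes numbered 276, 164 and 115 in animal B and 259, 189 and 146 in C. From 5 to 8 kb there were 1.54 times as many H3K27ac intervals as from 2 to 5 kb in B and 1.33 times in C. The ratio was 1.92 and 1.76 where the nearest H3K4me3 interval was in the upper 25% of its library by fold enrichment, and 1.18 and 1.14 where it was in the lowest 25%. For H3K4me3 the ratio was 0.72 in B and 0.86 in C over all intervals, 1.18 and 1.57 where the nearest H3K27ac interval was in the upper 25%, and 0.42 and 0.56 where it was in the lowest 25%. The ratio was thus above 1 for H3K4me3 as well near H3K27ac intervals of high enrichment. The gap was computed after the intervals were called, and these counts had no test.

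**Figure D2:**
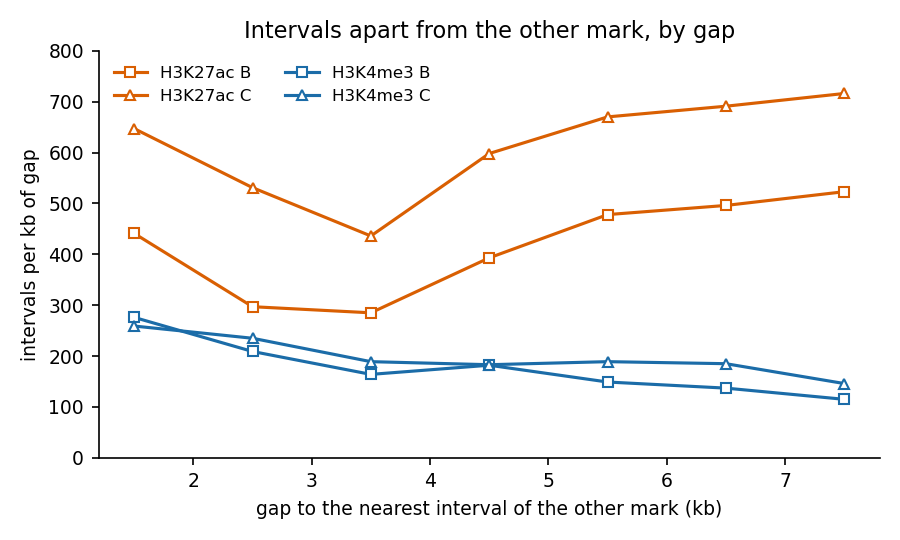
Number of intervals in each 1 kb class of gap (x axis, kb) to the nearest interval of the other mark of the same animal, for gaps of 1 to 8 kb. H3K27ac (orange) fell to 285 in animal B and 436 in C at 3 to 4 kb and rose again, while H3K4me3 (blue) fell to 115 and 146 at 7 to 8 kb.

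The most isolated intervals that recurred in all libraries of a mark were found as well. An interval recurred when 1 interval of each other library covered at least 50% of it. Of 30348 recurring H3K27ac intervals of animal B, 964 lay over 100 kb from H3K4me3 of any animal. The farthest lay at chromosome 19, 3402201 to 3402660, and was 1617924 bp from H3K4me3. It was 460 bp wide with a fold enrichment of 2.97. Of 17829 recurring H3K4me3 intervals of animal A, 385 lay over 100 kb from H3K27ac of either animal. The farthest lay at chromosome 27, 45200935 to 45201202, at 2378520 bp, and was 268 bp wide with a fold enrichment of 5.08.

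Across the autosomes the marks rose and fell together. H3K27ac ranged from 10.2 intervals per Mb on chromosome 12 to 30.8 on chromosome 19 in animal B, and from 11.3 on chromosome 6 to 32.5 on chromosome 19 in C. H3K4me3 was lowest on chromosome 20 in all 3 animals, at 6.43, 5.68 and 6.13 per Mb, and highest on chromosome 19, at 22.7, 20.3 and 22.1. Chromosomes 19, 25, 18 and 23 were the densest for both marks. Over the 29 autosomes, the H3K4me3 density of animal A and the mean H3K27ac density of B and C correlated with Pearson's r = 0.98 (Spearman's rho = 0.96). The range was wider for H3K4me3, 3.53 to 3.603 times from lowest to highest, than for H3K27ac, 3.01 and 2.88 times.

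The ratio of the marks was not the same on all chromosomes. H3K27ac to H3K4me3 ran from 1.39 on chromosome 18 to 2.01 on chromosome 28 in animal B, and from 1.40 to 2.06 on the same chromosomes in C. The ratios of B and C over the 29 autosomes correlated with r = 0.94. Against the H3K4me3 density of animal A, whose library enters neither ratio, they had r = -0.71 (rho = -0.73), so dense chromosomes had low ratios. The 3 H3K4me3 libraries share the build and its mappable sequence, so the density of A is not independent of the H3K4me3 numbers in the ratios. The length of a chromosome had r = 0.11 with the ratio.

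**Figure D3:**
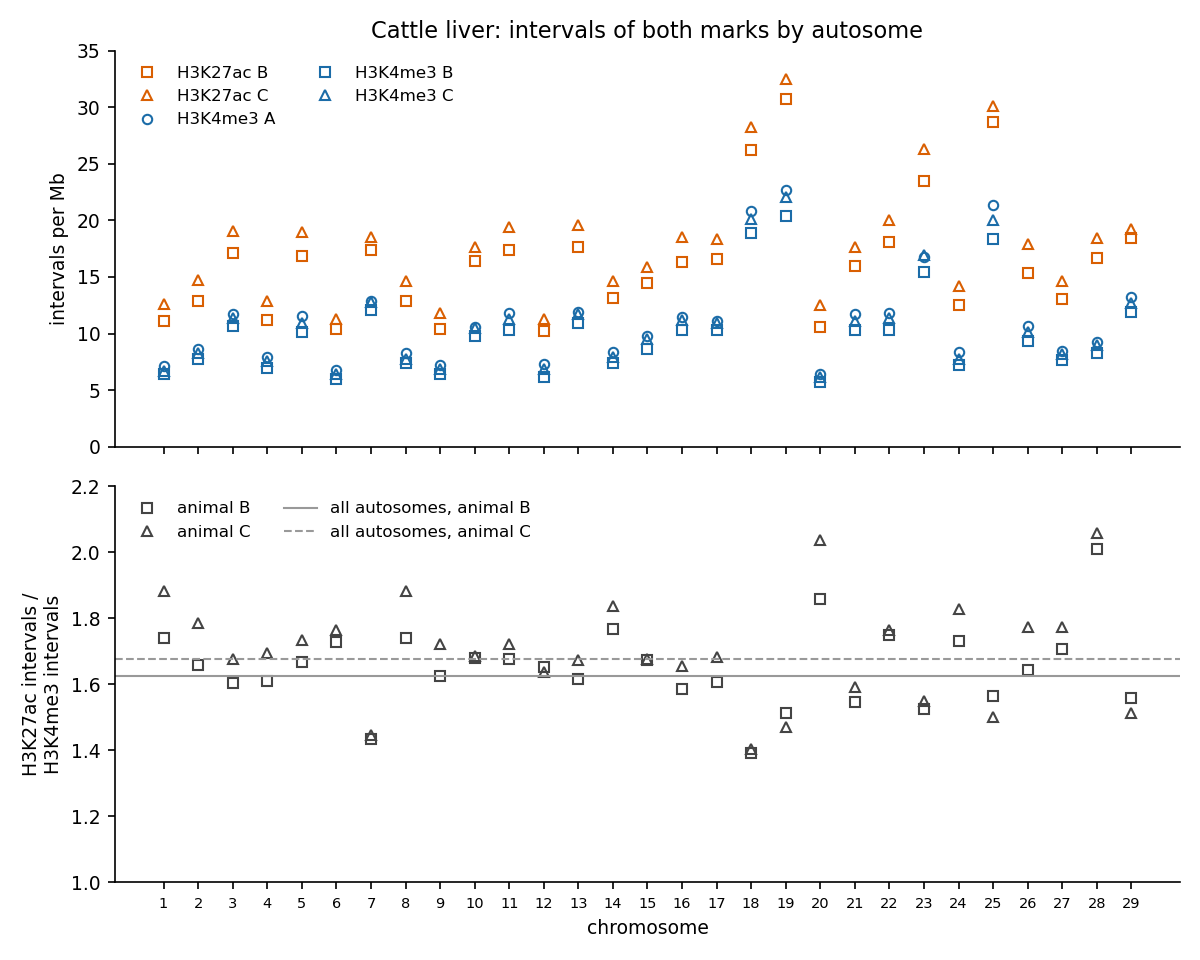
Intervals per Mb by autosome in the 5 libraries (top) and the ratio of H3K27ac to H3K4me3 intervals in animals B and C (bottom), where the lines mark the ratio over all autosomes of each animal. Chromosomes 18, 19, 23 and 25 stand out as dense, chromosomes 7 and 18 have ratios under 1.45 in both animals, and chromosome 28 lies above 2.0 in both.

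To test single chromosomes, each library was scaled to its own autosomal total, so a difference here is a departure from the autosome-wide ratio and not an absolute one. Of 29 autosomes, 10 (34.5%) had relatively more H3K27ac intervals and 7 (24.1%) relatively more H3K4me3 intervals (limma, adjusted p under 0.05). Without that scaling, H3K27ac was higher on all 29 and lower on 0, and with the 20000 strongest intervals per library 4 were called for H3K4me3. On the scaled values the libraries of the marks did not overlap on any of the 17 called chromosomes. They did not overlap on chromosomes 5, 10 and 11 either, which were not called, so this trait is not particular to the calls. Chromosome 28 led for H3K27ac, with 766 and 848 H3K27ac intervals in B and C against 427, 381 and 412 of H3K4me3 in A, B and C. Its scaled log2 difference was 0.30 ± 0.01 (SE, limma adjusted p = 9.5e-09). Chromosome 20 followed, with 760 and 899 against 463, 409 and 441, a difference of 0.23 ± 0.02 (limma adjusted p = 2.19e-05). Chromosome 1 came next, at 0.13 ± 0.02 (limma adjusted p = 0.000311), but at 0.02 and not called with the 20000 strongest intervals per library (limma adjusted p = 0.296).

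Chromosome 18 led for H3K4me3 over all intervals, with 1727 and 1862 H3K27ac intervals against 1369, 1242 and 1326 of H3K4me3. Its scaled log2 difference was -0.24 ± 0.02 (SE, limma adjusted p = 3.9e-06). Chromosome 7 had 1925 and 2053 against 1425, 1342 and 1418, a difference of -0.18 ± 0.02 (limma adjusted p = 0.000228). Chromosome 19 had 1952 and 2061 against 1439, 1291 and 1401, a difference of -0.14 ± 0.02 (limma adjusted p = 0.000294), which was -0.03 and not called with the 20000 strongest (limma adjusted p = 0.117). With the 20000 strongest intervals, chromosomes 18 and 7 were at -0.08 and -0.09 and chromosomes 28 and 20 at 0.14 and 0.13, all 4 smaller by over 1.5 times but still called in limma. H3K27ac was the more numerous mark on each of chromosomes 18, 7 and 19 over all intervals. Chromosomes 18, 19, 23 and 25, the 4 densest, were all among the 7, together with 7, 21 and 29. Chromosome 23 carries the major histocompatibility complex in cattle.

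The share apart was tested in the same way. It is not independent of the number, since overlapping intervals were nearly equal in number between the marks. In the share apart, 3 of 29 autosomes (10.3%) had a larger difference between the marks than the autosomes as a whole and 5 (17.2%) a smaller one (limma, adjusted p under 0.05). All of these were also called for number, in the same direction. With animal as a replicate block the counts were 2 and 3, with less than 50% covered as the rule for apart 5 were called in all, and without centring all 29 had more H3K27ac than H3K4me3 apart. On chromosome 28, 62.1% and 64.3% of the H3K27ac intervals were apart in B and C, and 27.8% and 27.9% of the H3K4me3 intervals. The departure was 8.53 ± 1.51 percentage points (SE, limma adjusted p = 4.85e-06). On chromosome 7, 48.1% and 49.4% of H3K27ac and 28.6% and 29.4% of H3K4me3 were apart, a departure of -7.09 ± 1.03 (limma adjusted p = 1.34e-07). On chromosome 18 the shares were 43.6% and 46.1% of H3K27ac and 23.8% and 25.4% of H3K4me3, a departure of -6.59 ± 1.09 (limma adjusted p = 1.85e-06). With the 20000 strongest intervals it was -2.64 and still called (limma adjusted p = 0.0151). Chromosomes 1, 8 and 19 were called as well, at 4.52, 4.05 and -4.05, but 1 and 19 were not called with a replicate block (limma adjusted p = 0.0742 each), and none of these 3 with the 20000 strongest intervals (limma adjusted p = 0.265, 0.0922 and 0.46) or with q under 1e-05 (0.0687, 0.105 and 0.105). The share of H3K27ac apart fell as the H3K4me3 density of animal A rose over the 29 autosomes (r = -0.88, rho = -0.86), which is a description, since a denser mark leaves less room to be apart from it.

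Widths departed on 14 autosomes, 7 (24.1%) with H3K27ac relatively wider and 7 (24.1%) with H3K4me3 relatively wider (limma, adjusted p under 0.05). Without centring, H3K4me3 was wider on all 29. The calls leaned on the 2 H3K27ac libraries, since 3 were left without animal B and 7 without animal C, and with the 20000 strongest intervals per library 2 autosomes were called in limma, with none of the 6 named next among them. On chromosome 12 the marks were closest. The H3K27ac medians were 483 and 513 bp, those of H3K4me3 642, 641 and 668 bp, and the departure was 0.18 ± 0.04 (SE, log2, limma adjusted p = 0.00447). It was 0.01 with intervals within 500 bp merged, 0.04 with mean widths, 0.06 with q under 1e-05 and 0.04 with the 20000 strongest, and was not called in any of these (limma adjusted p = 0.881, 0.0682, 0.103 and 0.154). Chromosomes 23 and 21 came next, at 0.11 ± 0.03 and 0.10 ± 0.02, of which chromosome 21 was at 0.06 and not called with merged intervals (limma adjusted p = 0.129). On chromosome 10 the marks were farthest apart, with 496 and 539.5 bp for H3K27ac against 870, 799.5 and 830.5 bp for H3K4me3, a departure of -0.12 ± 0.03 (limma adjusted p = 0.00447). It was not called with a replicate block, at -0.12 (limma adjusted p = 0.0791), nor with merged intervals, at -0.05 (limma adjusted p = 0.0727). Chromosomes 6 and 28 were both at -0.11. With mean widths, chromosomes 23, 21, 10, 6 and 28 were at 0.06, 0.06, -0.06, -0.07 and -0.05 and still called in limma.

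Summits and gaps departed on few chromosomes. The mean number of summits did so on 3 autosomes, 1 (3.45%) upwards and 2 (6.9%) downwards (limma, adjusted p under 0.05), and on 6 with a replicate block or q under 1e-05, 5 with the 20000 strongest intervals and 10 with intervals merged. That count in limma fell to 0 without H3K27ac of animal B and without that of animal C, with 6 at an unadjusted p under 0.05 in each case, and rose to 6 without H3K4me3 of A and to 5 without that of B or C. Without centring, 24 autosomes had more H3K4me3 summits. Chromosome 29 was the called one upwards, with 1.33 and 1.37 summits per H3K27ac interval against 1.53, 1.46 and 1.39 for H3K4me3. Chromosome 6 led downwards, with 1.27 and 1.29 against 1.56, 1.51 and 1.43, and chromosome 8 followed. For the gap, 1 autosome (3.45%) was called in each direction, chromosome 21 upwards and chromosome 6 downwards, and 10 had an unadjusted p under 0.05. With a replicate block limma called 0, with 6 at an unadjusted p under 0.05, and without centring 0, with 4. With intervals merged it called 5, all downwards. On chromosome 21 the median gaps were 23844 and 19034 bp for H3K27ac and 9862 and 12322 bp for H3K4me3. The departure of 0.54 (log2) was 0.26 with q under 1e-05 and 0.26 with intervals merged, and was called in neither (limma adjusted p = 0.398 and 0.219). On chromosome 6 they were 26784 and 20218 bp against 25506 and 31643 bp.

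The autosomes were then cut into 2502 bins of 1 Mb. A bin held a median of 11.5 and 12 H3K27ac intervals in B and C and of 8, 7 and 7 H3K4me3 intervals in A, B and C. The counts per bin correlated with r = 0.98 to 0.99 between libraries of the same mark and with r = 0.84 to 0.89 between marks, over bins that share their sequence and its mappable length. Between marks, libraries of the same animal were no closer than libraries of different animals, at 0.88 and 0.86 against 0.84 to 0.89. Both H3K27ac libraries exceeded all 3 H3K4me3 libraries in 1480 bins (59.2%), and the reverse held in 200 (7.99%). An interval of each library was present in 2097 bins, and 108 bins were empty in all 5. H3K27ac alone was present in 45 bins, and H3K4me3 alone in 67, counting bins where all libraries of the one mark and no library of the other had an interval.

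The longest empty stretch was 4 bins of chromosome 24, from 15000001 to 19000000. The next was 3 bins of chromosome 20, from 43000001 to 46000000. Of 91 such runs, 77 were of 1 bin. The 10% of bins richest in a mark held 31.3% and 31.5% of the H3K27ac intervals and 34.6% to 35.2% of the H3K4me3 intervals. The densest bin of H3K27ac was chromosome 7, 43000001 to 44000000, with 85 and 80 H3K27ac intervals and 75, 64 and 72 of H3K4me3. The densest of H3K4me3 was chromosome 23, 31000001 to 32000000, with 79, 80 and 87 H3K4me3 intervals and 69 and 70 of H3K27ac, so the order of the marks was turned there.

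The bins were sorted by the number of H3K4me3 intervals in animal A, which enters neither ratio below. Its counts per bin correlated with those of H3K4me3 in B and C at r = 0.98 and 0.99. The sort is thus nearly a sort on the denominator of the ratios, and the trends over the classes are a description. The 229 bins with 0 of them held few intervals, at 0.97 and 1.17 H3K27ac intervals per bin in B and C, with ratios of H3K27ac to H3K4me3 of 3.75 and 7.88 and with 100% and 96.3% of H3K27ac apart. In bins with 1 to 4 of them, H3K27ac stood to H3K4me3 as 1.80 in animal B and 1.96 in C. In bins with 10 to 19 the ratios were 1.75 and 1.85. In bins with 40 or more they were 1.28 and 1.23. H3K27ac was thus in excess in each class, and least so in the 86 densest bins. The share of H3K27ac apart fell from bins with 1 to 4 to bins with 40 or more, from 69.7% to 36.7% in B and from 71.2% to 37.0% in C. The median H3K27ac width rose between the same classes, from 429 to 554 bp in B and from 466 to 584 bp in C. H3K4me3 intervals were wide in the middle classes, at 739 bp in B and 783 bp in C for 10 to 19, and shorter in the densest bins, at 689 and 757 bp.

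**Figure D4:**
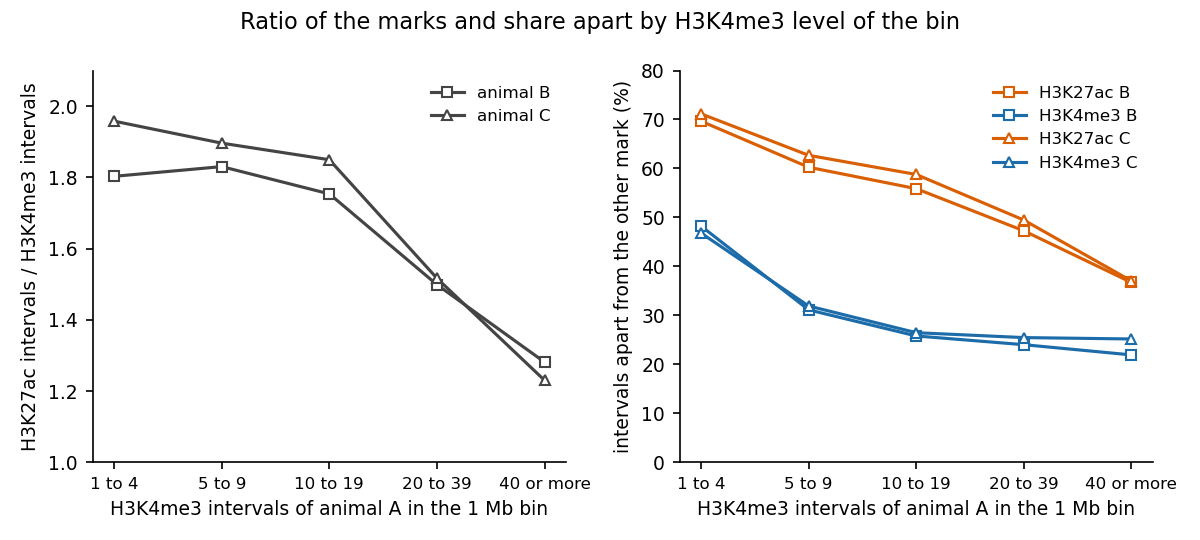
Ratio of H3K27ac to H3K4me3 intervals in animals B and C (left) and percent of intervals apart from the other mark (right), with 1 Mb bins classed by the number of H3K4me3 intervals in animal A (x axis) and bins with 0 left out. The ratio was 1.80 and 1.96 in bins with 1 to 4 and 1.28 and 1.23 in bins with 40 or more, with 1.83 in B at 5 to 9, and the share of H3K27ac apart fell from class to class.

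In the test of single bins, scaled to the library totals as above, 2040 bins with a mean of at least 2 intervals entered. Of these, 510 (25%) had relatively more H3K27ac and 541 (26.5%) relatively more H3K4me3 (limma, adjusted p under 0.05). Without scaling, the counts were 1250 and 105, and with the 20000 strongest intervals per library 230 and 261. The libraries of the marks did not overlap in 503 and 538 of the called bins on the scaled values. The share without overlap among all tested bins is not given here, so this count is no support for the calls. Called bins with more H3K27ac held a median of 21 and 26 H3K27ac intervals and of 8, 7 and 8 of H3K4me3. Those with relatively more H3K4me3 held 11 and 12 of H3K27ac and 12, 11 and 12 of H3K4me3. Of the 541, 63 had a mean of 40 or more intervals, as did 5 of the 510. Among the 989 bins not called, 37 did. A mean under 10 was found in 237 of the 541, 180 of the 510 and 427 of the 989. Low levels were thus not particular to the bins called for H3K4me3.

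Among called bins with at least 10 intervals on average, the largest relative excess of H3K27ac was at chromosome 6, 43000001 to 44000000. It held 22 and 27 H3K27ac intervals against 2, 1 and 3 of H3K4me3, and the scaled log2 difference was 2.71 ± 0.28 (SE, limma adjusted p = 3.04e-06). Chromosome 14, 14000001 to 15000000, held 26 and 36 against 6, 2 and 5, a difference of 2.11 ± 0.28 (limma adjusted p = 2.43e-05), which was 1.81 and not called with the 20000 strongest (limma adjusted p = 0.0993). Chromosome 3, 86000001 to 87000000, held 28 and 29 against 6, 4 and 3. Chromosome 7, 54000001 to 55000000, held 24 and 31 against 4 in each H3K4me3 library. Chromosome 11, 85000001 to 86000000, held 17 and 24 against 2, 3 and 4. In these 5 bins the lowest H3K27ac count was at least 4 times the highest H3K4me3 count. Differences are on the log2 scale after a pseudocount of 0.5, which understates those of small counts. The longest unbroken runs of bins called for H3K27ac were of 5 bins. There were 4 such runs, and the first was at chromosome 1, 76000001 to 81000000, with 109 and 146 H3K27ac intervals against 41, 33 and 44.

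Among called bins with at least 10 intervals on average, the 5 with the largest relative excess of H3K4me3 lay in large part at the start of a chromosome. Chromosome 18, 1 to 1000000, held 5 and 7 H3K27ac intervals against 19, 17 and 13 of H3K4me3, a scaled log2 difference of -2.06 ± 0.19 (SE, limma adjusted p = 1.23e-06). The first bin of chromosome 23 held 9 and 9 against 20, 20 and 17, at -1.72 ± 0.15 (limma adjusted p = 1.1e-06). The first bin of chromosome 2 held 10 and 11 against 20, 22 and 21. The first bin of chromosome 12 held 7 and 12 against 21, 16 and 16. The exception was chromosome 9, 50000001 to 51000000, with 10 and 10 against 19, 21 and 19. In all 5 bins H3K4me3 was higher in plain counts as well, in every library. The longest run of bins called for H3K4me3 was of 20 bins, from 46000001 to 66000000 of chromosome 18. It held 795 and 822 H3K27ac intervals and 799, 706 and 766 of H3K4me3, so the marks were close in plain counts where the autosome-wide ratio was 1.61.

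The starts of all chromosomes were then examined, a comparison chosen after the values of those bins were seen. Cattle autosomes are acrocentric, and by convention their sequences are numbered from the centromeric end. Of the 28 first bins tested, 26 were called for relatively more H3K4me3 and 1, on chromosome 20, for relatively more H3K27ac, beside 26.5% and 25% of all bins. With the 20000 strongest intervals per library 16 and 0 were called, and without scaling 14 and 4. The exceptions were chromosome 20, with 23 and 26 H3K27ac against 10, 10 and 10 H3K4me3 intervals, and chromosome 3, with 12 and 13 against 7, 7 and 7. The first bin of chromosome 6 was empty. In plain counts, all H3K4me3 libraries exceeded both H3K27ac libraries in 16 of the 29 first bins and the reverse held in 5, beside 7.99% and 59.2% of all bins. Chromosome 16 had 27 and 34 H3K27ac intervals against 49, 52 and 53 of H3K4me3, and chromosome 13 had 41 and 49 against 72, 69 and 66. The second bins had 8 called for H3K4me3 and 3 for H3K27ac of 21 tested. The last bins, which are cut by the last interval of the chromosome, had 18 and 0 of 26.

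Within the first 1 Mb the H3K4me3 intervals crowded towards the first base. The 29 stretches of the first 100 kb held 93.1, 89.3 and 85.5 H3K4me3 intervals per Mb in A, B and C, and 47.6 and 59.0 H3K27ac intervals per Mb in B and C. From 500 to 1000 kb the densities were 11.9, 11.3 and 11.9 for H3K4me3 and 13.7 and 14.8 for H3K27ac. The order of the marks was thus turned in the first 100 kb and from 100 to 200 kb, and the usual order was back from 500 kb on. The intervals at the start were narrow. Within 100 kb the median H3K4me3 width was 360, 336 and 355.5 bp, against 843, 697 and 782 bp from 500 to 1000 kb. The H3K27ac medians there were 361.5 and 371 bp, just above those of all 3 H3K4me3 libraries, so the usual order of widths was not seen there. Of the H3K27ac intervals in the first 100 kb, 5.07% in B and 5.85% in C were apart from H3K4me3. Of the H3K4me3 intervals, 51.0% and 35.5% were apart from H3K27ac. The order of these shares was the reverse of the autosome-wide one. The fold enrichment there was 5.46, 5.41 and 5.65 for H3K4me3, below the library medians, and 5.85 and 5.84 for H3K27ac, above them. Whether input reads served as background in the peak calls is not stated, and input reads were not analysed here, so the part of background in these densities was not tested.

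**Figure D5:**
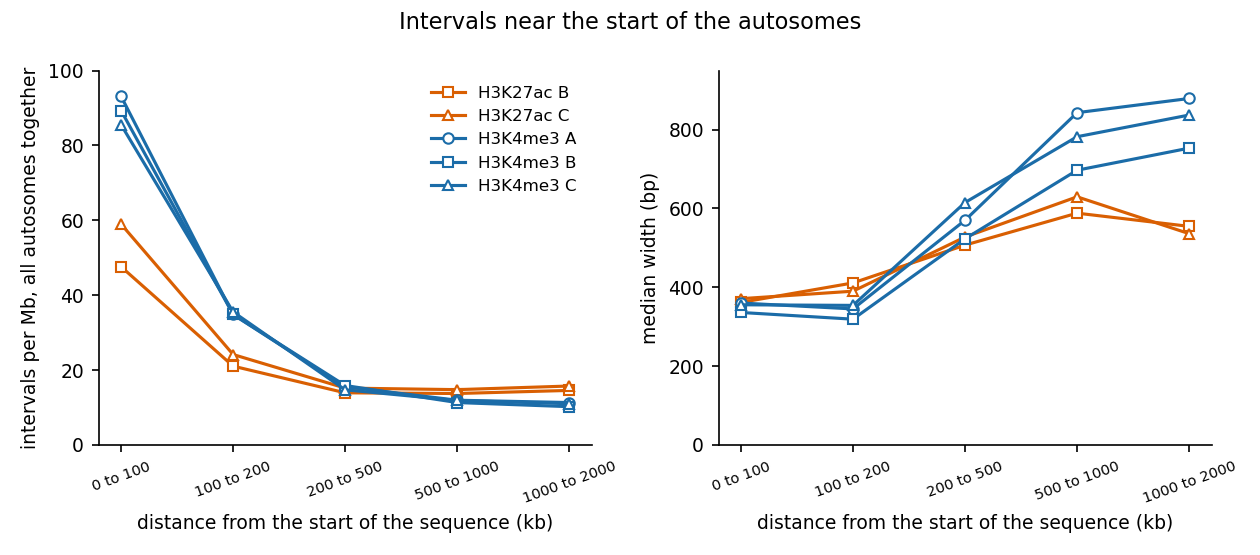
Intervals per Mb (left) and median interval width in bp (right) in 5 classes of distance from the start of the sequence (x axis, kb), with the 29 autosomes pooled. H3K4me3 (blue) reached 85.5 to 93.1 intervals per Mb in the first 100 kb, above H3K27ac (orange) at 47.6 and 59.0, and the median widths of all 5 libraries lay between 336 and 371 bp there.

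The first 1 Mb held 2.65% ± 0.14 of the autosomal H3K4me3 intervals of cattle (SD, n = 3) and 1.37% ± 0.02 of the H3K27ac intervals (SD, n = 2). The first 1 Mb of the 26 sheep autosomes held 1.34% ± 0.05 and 1.13% ± 0.06 (SD, n = 3 each), and that of the 29 goat autosomes 1.93% ± 0.05 and 1.65% ± 0.05 (SD, n = 3 each). Sheep thus had fewer such stretches, and some sheep autosomes are metacentric and do not start at a centromere. The median width of H3K4me3 intervals in the first 1 Mb was 406.5 to 465 bp in cattle, 648.5 to 710 bp in sheep and 692 to 702.5 bp in goats. The cattle values for H3K4me3 lay outside the range of the other species in both measures. Each species was aligned to a build of its own, so build and species cannot be told apart here.

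Width, summits and gap could be tested in bins with a mean of at least 10 intervals. Of 1196 such bins, 50 (4.18%) had relatively wider H3K27ac and 61 (5.1%) relatively wider H3K4me3 (limma, adjusted p under 0.05). Without centring the counts were 7 and 728. The calls rested on both H3K27ac libraries, with 0 left in limma without that of animal B (230 at an unadjusted p under 0.05) or of C (210), and 27 left without H3K4me3 of animal C. In all, 54 were called with q under 1e-05 and 29 with the 20000 strongest intervals. The first bin of chromosome 27 led for H3K27ac, at 752 and 785 bp against 461, 448 and 425.5 bp, a departure of 1.35 ± 0.14 (SE, log2, limma adjusted p = 0.0135), but 0.62 and not called with merged intervals (limma adjusted p = 0.133). Chromosome 19, 57000001 to 58000000, was next, at 636 and 959 bp against 470, 478 and 510 bp. The marks were turned in width in both bins. Chromosome 1, 19000001 to 20000000, led for H3K4me3, at 385 and 383 bp against 1521, 1381 and 1314.5 bp, where the H3K4me3 medians rest on 4, 3 and 4 intervals. Chromosome 2, 85000001 to 86000000, followed, at 369.5 and 386 bp against 1237.5, 1195.5 and 975 bp.

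For summits, 0 of 1196 bins were called in either direction (0%, limma), and 216 had an unadjusted p under 0.05. With intervals within 500 bp merged, 28 of 1055 bins were called. For the gap, 74 of 1245 bins (5.94%) had a relatively larger gap of H3K27ac and 35 (2.81%) of H3K4me3 (limma, adjusted p under 0.05), and limma called 0 with a replicate block, where 250 had an unadjusted p under 0.05. In all, 58 bins were called for the gap with q under 1e-05 and 30 with the 20000 strongest intervals. In 145 of the 1245 bins a library had no interval apart and the fit went on without it, 13 of the called bins among them. At chromosome 7, 90000001 to 91000000, the median gap was 252800 and 211409 bp for H3K27ac against 200 and 167 bp for H3K4me3. The log2 departure of 9.89 was 2.85 with intervals merged, and it was not called with q under 1e-05 (limma adjusted p = 0.15). At chromosome 22, 6000001 to 7000000, the gaps were 23661 and 21682.5 bp for H3K27ac against 25 bp for H3K4me3 of C, with no H3K4me3 interval apart in B. Its departure of 9.55 was 0.89 and not called with q under 1e-05 (limma adjusted p = 0.631). At chromosome 7, 2000001 to 3000000, it was 213.5 and 193 bp for H3K27ac against 26658 and 32393.5 bp for H3K4me3. At chromosome 6, 72000001 to 73000000, it was 522 and 297 bp against 31450 and 10913 bp. A bin's gap rests on few intervals, as the first of these bins held 20 and 25 of H3K27ac and 9 and 9 of H3K4me3 before those that overlap were left out.

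The difference between the marks within an animal was set against that in the 6 sheep and goats, in 4 measures with Benjamini-Hochberg adjustment over them. The log2 difference in number was 0.70 and 0.74 in cattle B and C, 0.67 to 0.85 in goats and 0.28 to 0.51 in sheep. Cattle stood 0.13 above the mean of the others (p = 0.5, adjusted p = 0.5, two-sided exact permutation test over 28 arrangements). The log2 difference in width was -0.52 and -0.56 in cattle, and -0.55 to -0.75 in the others (p = 0.107, adjusted p = 0.429, the same exact test). The difference in summits was -0.18 and -0.08, against -0.09 to -0.24 (p = 0.5, adjusted p = 0.5, the same exact test). The difference in share apart was 26.1 and 27.5 percentage points in cattle, 22.2 to 28.4 in goats and 5.48 to 16.4 in sheep (p = 0.286, adjusted p = 0.5, the same exact test). The smallest p that 28 arrangements allow is 0.0357, so 1 measure alone could not have passed 0.05 after the adjustment. Without sheep B the difference in number was 0.07 in place of 0.13 and that in share apart 4.98 percentage points in place of 7.71, which was 4.12 with the 20000 strongest intervals. The difference in width was 0.13, and 0.23 with the 20000 strongest and 0.08 with merged intervals. Cattle lay within the goat range in number and share apart.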

How the data were processed

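According to the methods and labels, the authors trimmed paired-end reads with Trim Galore 0.4.0, aligned them to ARS-UCD1.2 with BWA 0.7.17, removed duplicates with Picard 2.25.0, subsampled the reads and called narrow peaks per library with MACS2 2.1.1. Input libraries were made as controls for artifacts of shearing and amplification, and were subsampled too. Whether input served as background in the peak calls is not stated. Each deposited list gives positions, a score, a fold enrichment (a ratio to background) and −log10 p and q. The authors' values served to describe, rank and, in some alternatives, select intervals. Per those methods, paired-end libraries were cut to one common depth. No list gives read numbers, so that depth was not checked here, and precision rests on 2 or 3 animals per mark.

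Intervals were assigned to bins by their midpoint, and coordinates are 1-based. Per chromosome and bin, limma 3.58.1 (R 4.3.3; trended eBayes, Benjamini-Hochberg adjustment over all features of a table) compared log2((n + 0.5) per 10000 autosomal intervals), and the log2 median width, mean summits, log2 median gap and share apart, each minus the value of its library over all autosomes. The limma p-values rest on a variance that eBayes shares across the chromosomes or bins of a table. They therefore do not measure the spread between animals alone, and a small p does not stand for many animals. Outside the replicate block, both marks of a liver were entered as unpaired. Single values had exact permutation tests. Python 3.11.15 was used. Distances were checked against bedtools 2.31.1, and limma was tested on simulated data.

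Chromosomes named are the 3 with the largest differences per direction among those called with libraries of the marks not overlapping. Bins named are the 5 largest for number and the 2 largest for other measures. The members and rules were chosen with earlier results of these data known. Alternatives are a q under 1e-05, the 20000 strongest intervals per library by −log10 q, intervals within 500 bp merged, other filters and pseudocounts, no centring, a replicate block and leaving out libraries. The letter pairs libraries of the same liver, as the titles give it. Deviations per bin correlated with r = 0.06 (B) and 0.02 (C) between marks of the same animal. The lists of liver genes and cell markers and the sequence at summits were not analysed here.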

Additional observations from a re-analysis of the deposited data

Results flagged for a closer look

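Data outside the autosomes held intervals as well. On chromosome X the order of the marks was turned, with 942 and 1057 H3K27ac intervals in B and C against 1227, 1196 and 1158 of H3K4me3 in A, B and C. The means were 999.5 ± 81.3 (SD, n = 2) and 1194 ± 35 (SD, n = 3), a ratio of 0.84 where the autosomes had 1.61. With q under 1e-05 that ratio was 0.72. The share apart was turned too, at 35.8% and 38.0% for H3K27ac and 50.6% and 45.6% for H3K4me3. These values had no test, and the difference from the autosomes was not tested. The mitochondrial sequence held at most 9 intervals in a library.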

How the results depend on the processing

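Counts are chromosomes or bins past 0.05 in limma. A single remaining H3K27ac library is assumed to vary like the others. With q under 1e-05 the calls numbered 6 for summits and 0 for gap by chromosome (4 at an unadjusted p under 0.05), 54 for width and 58 for gap by bin, and the differences between marks were 0.42 (log2) in number, -0.45 in width and 17.5 percentage points in share apart. With the 20000 strongest intervals per library, the chromosomes called numbered 4 for relatively more H3K4me3, 2 for width, 5 for summits and 1 for gap, and the bins 230 for more H3K27ac, 261 for more H3K4me3, 29 for width and 30 for gap. The differences were then -0.28 in width, -0.083 in summits and -0.65 points in share apart, and -0.25 (log2) in gap, which was turned. Numbers are equal by construction there. As most overlapping intervals met a single partner, equal numbers bring the shares apart close as well. With intervals within 500 bp merged, 10 chromosomes were called for summits, 5 for gap and 28 bins for summits, and the differences were 0.59 in number, -0.47 in width and -0.080 in summits. Without centring, 29 chromosomes were called for more H3K27ac, 0 for more H3K4me3, 29 for width, 24 for summits, 0 for gap and 29 for share apart, and the bins numbered 1250, 105 and, for width, 735. The animal as a replicate block gave 6 chromosomes for summits, 0 for gap and 5 for share apart, and 0 bins for gap, and moved no other count by over 1.5 times. Covering under 50% as the rule for apart gave 20.6 points and 5 chromosomes. The mean width gave -0.41, and the percent with more than 1 summit -9.91. In 500 kb bins, 813 were called for more H3K4me3, with a mean of at least 10 intervals 314, and with no filter 8 bins for summits.

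Leaving out each library gave 3 to 15 chromosomes for width, 0 to 6 for summits and 0 to 106 bins for width. Leaving out an animal could not be fitted for gap and share apart by chromosome or bin. Against sheep and goats, the difference in summits was -0.00077 with merged intervals and between -0.0090 and 0.10 without each animal. The named chromosomes and bins kept their direction in all 361 repeats run for them and were no longer called in 58. The first bins called for H3K4me3, a count added after the data were seen, numbered 16 with the 20000 strongest, 14 without scaling and 21 to 27 in the other 12 settings. The cause of these shifts was not tested. The common depth set by the subsampling was not checked, as the lists carry no read numbers, and having 2 H3K27ac animals limits the comparisons.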
